A study of Mus musculus with 6 samples.

Results

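The MHC class II genes of the mouse and their transactivator Ciita were followed through all 6 single-cell libraries of the series. The set held 10 genes chosen by name, H2-Aa, H2-Ab1, H2-Eb1, Cd74, Ciita, H2-DMa, H2-DMb1, H2-DMb2, H2-Oa and H2-Ob, of 31063 genes listed for the culture libraries and 31065 listed for the wound libraries, and all 10 had UMIs in every library. A UMI is a molecular tag that counts each captured RNA molecule once. Kept cells had at least 300 detected genes, fewer than 100000 UMIs and less than 10% mitochondrial UMIs.

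Of the libraries, 3 came from bone-marrow-derived dendritic cells (BM-DCs) of C57BL/6J mice grown in suspension with GM-CSF, without stimulation (untreated DCs), with 1e-06 M vitamin D3 for 24 h from day 7 of culture (VD3 stimulated DCs), or after CRISPR-knockout of Ndrg2 (Ndrg2-KO DCs). The other 3 came from splinted full-thickness excisional wounds of wild-type C57BL6 mice, 6 weeks old, treated with pullulan-collagen hydrogels that were seeded with control DCs, seeded with Ndrg2-KO DCs, or left blank, and taken on day 10 from 5 mice per group. The knockout was made by nucleofection of Cas9 protein with 3 guides and the cells were used as a pool, not as a clone. No culture library nucleofected with a non-targeting guide was analysed here, so knockout, nucleofection and library cannot be told apart in the cultures. The labels call the control DCs of the wounds untreated, whereas the study's methods describe nucleofection with non-targeting guides. The design text of the series speaks of sorted GFP+ cells from parabiotic animals, which neither the labels of the wound libraries nor the study's methods for them name, and the wound values are read as those of digested wound tissue. Each condition was 1 library, so no difference between libraries has a replicate check and none was tested.

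Class II molecules are dimers of an α and a β chain that display peptides from endocytosed proteins to CD4 T cells. The invariant chain, encoded by Cd74, escorts new dimers to endosomes and is cut there to a fragment that fills the peptide groove. H2-DM exchanges that fragment for peptide and H2-O holds H2-DM back. Ciita binds no DNA itself but is recruited by the RFX, CREB and NF-Y factors that sit on conserved X and Y boxes of class II promoters. DCs make class II constitutively, and maturing DCs are known to load the surface with peptide-filled dimers while their new synthesis and turnover fall.

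The promoter stretches that carry these boxes are shown because the results below compare genes that share them. They were read from RefSeq promoter sequences (250 bases before to 50 bases after the start) on GRCm38.p6, in which 7 of the 10 genes had an entry. H2-Ab1, Cd74 and Ciita had none. Each stretch is 50 bases, 5′ to 3′ on the gene's own strand, with capitals on the Y box TGATTGG, the X partial site AACNNATG and the X2 palindrome TGACGTCA.
H2-Aa: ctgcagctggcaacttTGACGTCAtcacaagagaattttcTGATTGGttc
H2-Eb1: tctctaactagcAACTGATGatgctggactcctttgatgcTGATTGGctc
H2-DMb1: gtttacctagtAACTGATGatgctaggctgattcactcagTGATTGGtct
H2-DMb2: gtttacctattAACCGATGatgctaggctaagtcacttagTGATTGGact
H2-Oa: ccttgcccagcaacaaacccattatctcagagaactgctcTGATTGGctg
H2-Ob: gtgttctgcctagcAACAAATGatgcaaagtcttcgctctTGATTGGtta
In genome order the stretches lie at chr17:34092294-34092343 (H2-Oa), chr17:34145117-34145166 (H2-DMb2), chr17:34153088-34153137 (H2-DMb1), chr17:34238806-34238855 (H2-Ob), chr17:34287864-34287913 (H2-Aa, minus strand) and chr17:34305766-34305815 (H2-Eb1), all others on the plus strand. The Y box was present in 6 of the 7 genes with an entry, H2-DMa being without a match, and in 7.82% of all 32851 promoters of the table when both strands were searched. The X partial site was present in H2-Eb1, H2-DMb1, H2-DMb2 and H2-Ob, 26 to 29 bases before the Y box from first base to first base, and in 8.86% of all promoters. The X2 palindrome was present in H2-Aa, 24 bases before the Y box, and in 1.79% of all promoters. The stretches of H2-DMb1 and H2-DMb2 were the same at 44 of 50 bases (88%). A match says only that these letters are present.

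In the GENCODE M21 annotation of GRCm38, 8 of the 10 genes lie within chr17:34092340-34316674, from H2-Oa to H2-Eb1, and Ciita lies at chr16:10480059-10528418 on the plus strand. The α chain gene H2-Aa is at chr17:34282744-34287823 on the minus strand, the β chain gene H2-Ab1 at chr17:34257689-34269419 and H2-Eb1 at chr17:34305867-34316674, both on the plus strand. Genes on the opposite strand overlap H2-Eb1 (Gm20513), Ciita (Dexi), H2-DMa (Brd2, CR974462.4 and Gm20493) and H2-Oa (BC051537). On the same strand CR974462.3 overlaps H2-DMa and Mir5107 overlaps Cd74. H2-DMb1 and H2-DMb2 are near-identical copies, and 52 of 411 windows of 90 bases (12.7%) in the last 500 bases of the H2-DMb1 transcript were also found in H2-DMb2. None of the 417 windows of H2-DMb2 was found in H2-DMb1, so the counts of H2-DMb1 are the less certain of the pair. H2-Ea and Ifi30 were not analysed here.

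The culture libraries held 7257 untreated, 8825 VD3 stimulated and 7969 Ndrg2-KO cells after filtering, with medians of 12089 to 16316 UMIs per cell. The wound libraries held 1948 cells with control DCs, 5681 with Ndrg2-KO DCs and 3403 with blank hydrogels, with medians of 4415 to 10795 UMIs. At most 19 cell barcodes were shared by any pair of libraries. Ndrg2 itself stood at 4.62 UMIs per 1000000 (CPM) in untreated, 1.42 in VD3 stimulated and 0.884 in Ndrg2-KO DCs, lowest in the library labelled knockout. Cells were clustered without the 10 genes and Ndrg2, and clusters were named from marker lists by a rule set after the clusters were seen. Mature DC-like cells made up 36.4% of untreated, 37.6% of VD3 stimulated and 26.4% of Ndrg2-KO cells, and premature DC-like cells 15.4%, 13.0% and 45.1%. Neutrophil-like cells numbered 925, 1113 and 39, and conventional DC1-like (cDC1-like) cells 79 and 151 in the first 2 libraries, with none named in the Ndrg2-KO library. The DC integrin gene Itgax stood at 146, 77.8 and 263 CPM in the 3 cultures.

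Classical class II genes were lower in both treated cultures than in untreated DCs, and the invariant chain gene Cd74 was the most abundant of the 10 in each culture. Levels are UMIs of a gene per 1000000 UMIs of the library, counted at the 3′ end and so not scaled to length, with exact Poisson 95% intervals that cover counting error only. H2-Aa stood at 1255 CPM (1249 to 1261) in untreated, 1084 (1078 to 1090.0) in VD3 stimulated and 800.3 (796 to 805) in Ndrg2-KO DCs. H2-Ab1 stood at 908, 561 and 487 CPM in the same order, and H2-Eb1 at 1074, 931 and 514. Cd74 stood at 6743, 5811 and 4179.5 CPM and ranked 12, 18 and 21 among all genes with a UMI in its library. For these 4 genes the untreated library was highest and the Ndrg2-KO library lowest, and none of the counting intervals overlapped. In such whole-library sums fewer cells of a type and less RNA per cell cannot be told apart.

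**Figure D1:**
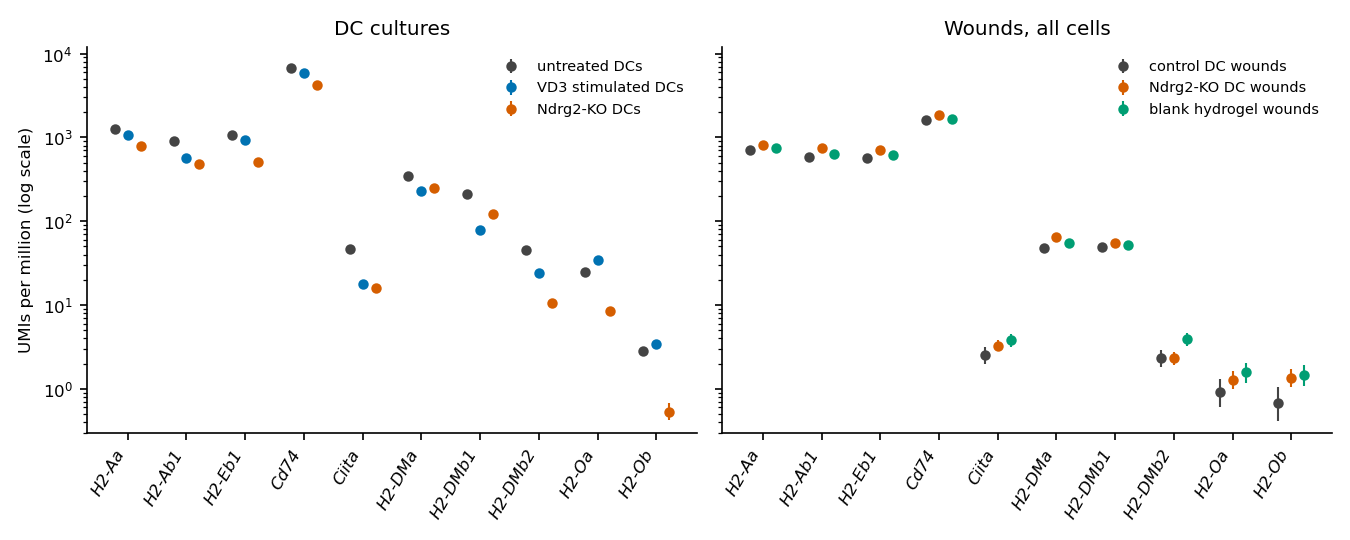
Level of each of the 10 genes in all kept cells of the 3 culture libraries (left) and the 3 wound libraries (right), in CPM on a log axis. Points are single libraries and bars are exact 95% counting intervals, and in the cultures the untreated library is highest for 8 genes, while VD3 stimulated DCs are highest for H2-Oa and H2-Ob. The untreated and VD3 stimulated intervals overlap for H2-Ob.

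The transactivator Ciita was lower in both treated cultures by more than any of the classical chains. Ciita stood at 46.2 CPM (45.1 to 47.4, 6128 UMIs) in untreated, 18.0 (17.2 to 18.8, 2094 UMIs) in VD3 stimulated and 15.8 (15.2 to 16.5, 2269 UMIs) in Ndrg2-KO DCs. It was 2.57-fold lower in VD3 stimulated than in untreated DCs, a log2 ratio of -1.36 (exact 95% counting interval -1.43 to -1.29). In Ndrg2-KO DCs it was 2.93-fold lower, a log2 ratio of -1.55 (-1.62 to -1.48). Both ratios share the untreated library. Its rank among genes with a UMI was 2805, 5433 and 6055.

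The peptide-editing genes did not keep one order. H2-DMa, the α chain of H2-DM, stood at 351 CPM in untreated, 227 in VD3 stimulated and 246 in Ndrg2-KO DCs. H2-DMb1, one of its β chains, stood at 212, 78.8 and 123 CPM, lowest in VD3 stimulated DCs. H2-DMb2, the other β chain, stood at 46.0, 24.2 and 10.5 CPM, lowest in Ndrg2-KO DCs. The β chains were thus lowest in different cultures. H2-Oa, the α chain of the inhibitor H2-O, stood at 25 (24.1 to 25.8), 34.7 (33.6 to 35.8) and 8.48 (8.01 to 8.97) CPM. Its β chain H2-Ob stood at 2.86, 3.43 and 0.536 CPM, from 379, 399 and 77 UMIs. Both H2-O genes were highest in VD3 stimulated DCs, unlike the other 8.

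Counted at a threshold of 2-fold, with all 10 genes above the minimum of 50 UMIs in the pair of libraries, VD3 stimulated against untreated DCs gave 2 genes lower (Ciita and H2-DMb1) and 0 higher, where 7.44% of 13113 genes were at least 2-fold lower and 4.18% higher. H2-DMb1 was 2.69-fold lower, a log2 ratio of -1.43 (-1.46 to -1.39). Ndrg2-KO against untreated DCs gave 5 lower (H2-Eb1, Ciita, H2-DMb2, H2-Oa and H2-Ob) and 0 higher, where 9.28% of 13329 genes were lower and 10.2% higher. H2-DMb2 was 4.37-fold lower, H2-Oa 2.94-fold and H2-Ob 5.33-fold, the last a log2 ratio of -2.41 (-2.79 to -2.06). H2-Eb1 was 2.09-fold lower, close to the threshold, and was not past it when cells were averaged with equal weight. Ndrg2-KO against VD3 stimulated DCs gave 3 lower (H2-DMb2 by 2.29-fold, H2-Oa by 4.09-fold and H2-Ob by 6.39-fold) and 0 higher, where 9.21% of 13235 genes were lower and 13.0% higher. H2-DMb2 was not past 2-fold, at a log2 ratio of -0.89 in place of -1.20, when cells were averaged with equal weight. The median log2 ratio of the 10 genes was -0.42, -0.98 and -0.46 in these comparisons, beside -0.076, -0.059 and -0.000 over all genes compared. The summed level of the 9 neutrophil markers, all with UMIs in each culture, was 5202 CPM in untreated, 6085 in VD3 stimulated and 385 in Ndrg2-KO DCs, and that of the 8 premature markers 9976, 4195 and 28329.7 CPM. The 7 basophil markers summed to 69.6, 64.5 and 12.4 CPM, with 5 of them at 0 in Ndrg2-KO DCs (Prss34, Mcpt8, Cpa3, Ms4a2 and Fcer1a), and the 5 progenitor markers to 217, 85.2 and 6.04 CPM, with Mpo at 0 in Ndrg2-KO DCs. The 7 cDC1 markers, all with UMIs in each culture, summed to 325, 491 and 303 CPM. No basophil-like or cDC1-like class, the classes highest in H2-Ob in the other 2 cultures, was named in the Ndrg2-KO library. The part of these cells in the whole-library ratios was not tested, and the levels within classes follow.

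Mature DC-like cells were named from Ccr7, Fscn1, Ccl22, Il4i1 and 4 further markers, and premature DC-like cells from markers of DC precursors such as Csf1r, Ccr2, Lyz2 and Fn1. The summed mature markers stood at 17085, 12022 and 24603 CPM in mature and at 448, 646 and 639 CPM in premature DC-like cells of the untreated, VD3 stimulated and Ndrg2-KO libraries. The premature class was 1 cluster per library and a different cluster in each, so library and class cannot be told apart when premature cells of different libraries are set side by side. The 8 macrophage markers were all present in the premature clusters, summing to 1487, 2366 and 2019.6 CPM against 69.9, 71.7 and 314 CPM in the mature clusters. Within the premature clusters 4, 6 and 5 of those 8 were at least 2-fold above the rest of their library, and the part of macrophage-like cells in the values was not tested. The premature cells were deeper, with medians of 20438, 15172 and 18913 UMIs against 14510.0, 13672 and 10703 in the mature cells. Median mitochondrial shares were 6.05%, 7.06% and 6.58% in premature and 5.62%, 6.12% and 7.12% in mature cells.

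Mature DC-like cells held more RNA of H2-Aa, H2-Eb1, Cd74 and H2-DMb2 and less of H2-DMa and H2-DMb1 than premature cells in every culture, except that H2-DMa and H2-DMb1 turned to log2 ratios of 0.26 and 0.56 in VD3 stimulated cells with under 5% mitochondrial UMIs, while H2-Ab1 and Ciita were not on the same side in every culture. H2-Aa stood at 2009 CPM in mature and 1248 in premature untreated cells, at 1586 and 571 in VD3 stimulated cells and at 1592 and 691 in Ndrg2-KO cells. H2-Eb1 stood at 1868 and 987, at 1429 and 393, and at 1109 and 423 CPM. Cd74 stood at 11093 and 6523, at 7496 and 4401, and at 9139 and 3206 CPM. The α and β chains did not share one order, because H2-Ab1 stood at 787 CPM in mature and 1391 in premature untreated cells, at 484 and 573 in VD3 stimulated cells, and at 727 and 489 in Ndrg2-KO cells. The mature to premature log2 ratio of H2-Ab1 was therefore -0.82 (-0.84 to -0.80) in untreated, -0.24 in VD3 stimulated and 0.57 in Ndrg2-KO cells. With under 5% mitochondrial UMIs H2-Ab1 was instead at least 2-fold higher in mature than in premature VD3 stimulated cells.

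Ciita stood at 35.3 CPM (33.5 to 37.1) in mature and 55.8 (52.9 to 58.8) in premature untreated cells. In VD3 stimulated cells it was the other way round, with 19.8 (18.6 to 21.1) in mature and 13.3 (11.7 to 15.0) in premature cells. In Ndrg2-KO cells it stood at 28.4 (26.4 to 30.6) and 13.3 (12.5 to 14.2) CPM. The mature to premature log2 ratio was -0.66, 0.58 and 1.10 in the 3 cultures, none with an interval that reached 0. The cultures were thus further apart in premature cells, where untreated stood above VD3 stimulated and Ndrg2-KO cells, whereas the mature cells of the 3 libraries lay between 19.8 and 35.3 CPM.

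The peptide-editing genes went both ways with maturity. H2-DMb1 stood at 48.8 CPM in mature and 442 in premature untreated cells, 9.06-fold lower, and at 46.3 and 119 in VD3 stimulated and 58.1 and 150.2 in Ndrg2-KO cells. The mature level of H2-DMb1 was thus nearly level across libraries, and the premature level was not. H2-DMb2 ran the other way, at 57.3 and 34.0 CPM in untreated, 34.7 and 8.06 in VD3 stimulated and 28.3 and 5.34 in Ndrg2-KO cells, beside 20.8, 8.29 and 7.14 CPM (the last from 1 UMI) in neutrophil-like cells of these libraries. H2-DMa stood at 168 and 514, at 177 and 311, and at 105 and 284 CPM. H2-Oa stood at 44.8 and 9.70 CPM in untreated, 40.2 and 29.2 in VD3 stimulated, and 30.4 and 2.50 in Ndrg2-KO cells, beside 14.5, 15.2 and 7.14 CPM (the last from 1 UMI) in neutrophil-like cells. The premature levels of H2-Oa in untreated and of H2-DMb2 in VD3 stimulated cells were thus no higher than in neutrophil-like cells of their library, and no fold is read from them. The 39 neutrophil-like cells of the Ndrg2-KO library were too few to set a background for these genes. H2-Ob was low in both classes, at 1.57 and 2.12 CPM in untreated, 1.95 and 3.87 in VD3 stimulated and 0.550 and 0.584 in Ndrg2-KO cells.

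**Figure D2:**
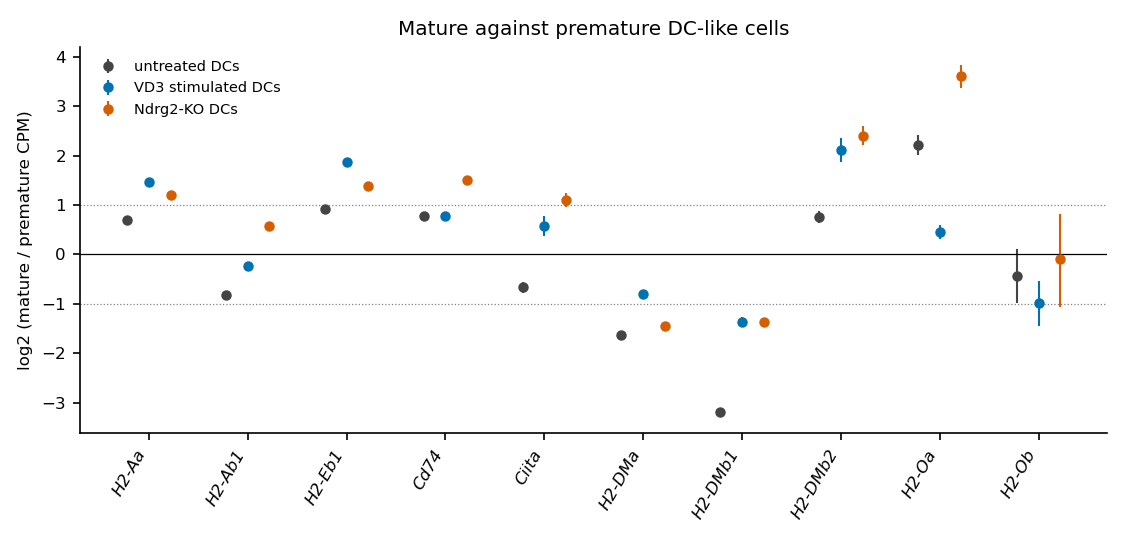
Log2 ratio of the level in mature against premature DC-like cells for each of the 10 genes within each culture library, with exact 95% counting intervals and dotted lines at 2-fold. H2-DMa and H2-DMb1 lie below 0 in all 3 libraries as plotted (above 0 in VD3 stimulated cells with under 5% mitochondrial UMIs), H2-DMb2 lies above 0 in all 3, and H2-Ab1 and Ciita lie below 0 in untreated and above 0 in Ndrg2-KO DCs.

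At 2-fold, 1 gene was higher (H2-Oa) and 2 lower (H2-DMa and H2-DMb1) in mature than in premature untreated cells, where 14.4% of 11311 genes were higher and 28.0% lower. The calls of H2-Oa here and of H2-DMb2 in VD3 stimulated cells rest on premature levels no higher than in neutrophil-like cells, and those of both genes in Ndrg2-KO cells have no background from that library. In VD3 stimulated cells 3 were higher (H2-Aa, H2-Eb1 and H2-DMb2) and 1 lower (H2-DMb1), where 13.1% of 11329 genes were higher and 23.1% lower. No premature VD3 stimulated cluster was named, and this comparison could not be made, without high doublet scores or with the 10 genes among the variable genes. In Ndrg2-KO cells 6 were higher (H2-Aa, H2-Eb1, Cd74, Ciita, H2-DMb2 and H2-Oa) and 2 lower (H2-DMa and H2-DMb1), where 12.5% of 11857 genes were higher and 18.9% lower. Ciita, at a log2 ratio of 1.10 there, was not past 2-fold with a minimum of 300 UMIs (0.99), with under 5% mitochondrial UMIs (0.79) or with means over cells (0.63), and H2-Aa and H2-Eb1 were not past it with means over cells. H2-DMb1, at -1.37, was at -0.74 and not past it with under 5% mitochondrial UMIs. The median of the 10 genes was 0.13, 0.52 and 1.15 on the log2 scale, beside -0.362, -0.227 and -0.094 over all genes compared. The higher and lower genes of the untreated library depended on the scaling, since median-ratio scaling, which centres the typical gene, gave 5 higher (H2-Aa, H2-Eb1, Cd74, H2-DMb2 and H2-Oa) and 2 lower, with 20.7% and 20.0% of all genes. In the VD3 stimulated library H2-DMb1 turned from a log2 ratio of -1.36 to 0.56 with cells under 5% mitochondrial UMIs kept and clustered anew. It stood at -0.69 when maturity was taken from marker counts per cell. Under that setting 5 genes were higher (Cd74 and Ciita in addition) and 0 lower, where 12.9% of all genes were higher and 22.1% lower.

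Within the H2-DM pair the share of each β chain differed by maturity class. H2-DMb2 made up 54.0% (exact binomial interval 52.5 to 55.5) of the UMIs of both β chain genes in mature untreated cells and 7.15% (6.70 to 7.63) in premature ones. In VD3 stimulated cells the shares were 42.8% (41.3 to 44.4) and 6.36% (5.43 to 7.39). In Ndrg2-KO cells they were 32.7% (30.8 to 34.7) and 3.43% (3.11 to 3.78). The intervals cover counting error only. The premature H2-DMb2 level behind the VD3 stimulated share was no higher than in neutrophil-like cells, the Ndrg2-KO one has no background, and the maturity ratio of H2-DMb1 in VD3 stimulated cells changed sign with under 5% mitochondrial UMIs. The mature share was lowest in Ndrg2-KO cells. The classical pair differed as well, with 0.392, 0.305 and 0.457 UMIs of H2-Ab1 per UMI of H2-Aa in mature cells and 1.12, 1 and 0.707 in premature cells. Cd74 counted 2.38, 2.14 and 2.67 UMIs per UMI of the classical chains together in mature and 1.80, 2.86 and 2 in premature cells.

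Levels were also summed over cells grouped by the number of mature markers, from 0 to 8, with a UMI. Each cell was drawn to 2000 UMIs for this grouping. Cells under that depth and neutrophil-like, basophil-like, cDC1-like and granulocyte-monocyte progenitor-like cells were left out. Proliferating and unnamed cells were kept, so the cells with 0 markers are not the premature class alone. In untreated DCs H2-Aa stood at 791 CPM in cells with 0 markers, reached 1948 at 6 and stood at 1828 at 8. H2-Ab1 was highest at 2 markers, at 1171 CPM, and stood at 659 at 8. Ciita stood at 50 CPM at 0, was highest at 3 with 65.6 and stood at 32.4 at 8, so its highest level lay between the ends. H2-DMb1 stood at 325 CPM at 0 and 42.9 at 8, and H2-DMa at 471 and 156. In VD3 stimulated DCs Ciita lay between 12.1 CPM at 0 and 21.9 at 4. In Ndrg2-KO DCs it lay between 11.3 at 0 and 29.5 at 6. At 8 markers the 3 libraries were closer in Ciita, at 32.4, 18.2 and 27.6 CPM, than at 0, where they stood at 50, 12.1 and 11.3.

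**Figure D3:**
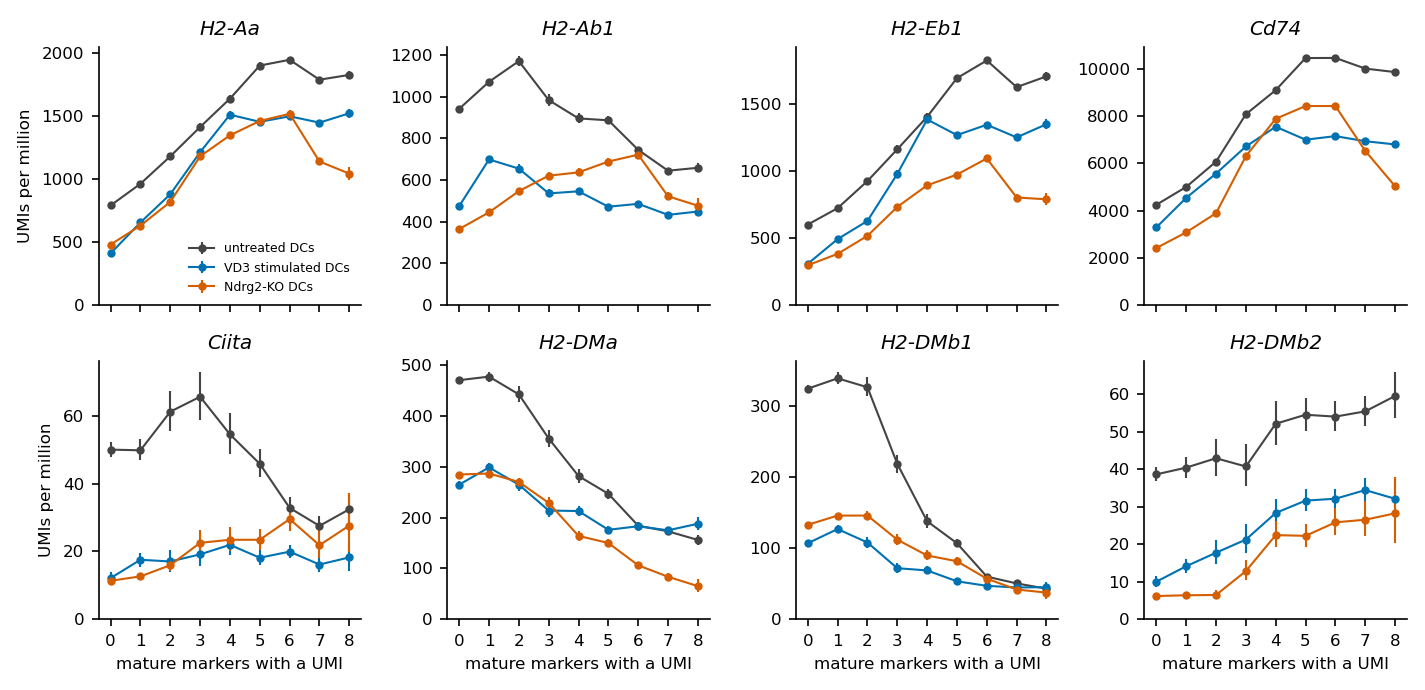
Level of 8 of the genes in CPM against the number of the 8 mature markers with a UMI in a cell drawn to 2000 UMIs, over the cells of each culture library with at least 2000 UMIs, other than neutrophil-like, basophil-like, cDC1-like and granulocyte-monocyte progenitor-like cells, with exact 95% counting intervals. H2-DMa and H2-DMb1 are lower at 8 than at 0 markers in all 3 libraries, and H2-Aa and H2-DMb2 are higher. Untreated cells are highest in Ciita at every number of markers, with intervals that overlap those of Ndrg2-KO cells at 6 to 8 markers.

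The cultures were also compared within mature DC-like cells alone, in comparisons added after the data were seen. Most mature cells of each library sat in a different cluster, 2580 of 2641 untreated cells in one, 3295 of 3316 VD3 stimulated cells in another and 1810 of 2105 Ndrg2-KO cells in yet another, so here too library and class cannot be told apart. No gene was 2-fold apart between VD3 stimulated and untreated mature cells, where 3.73% of 11448 genes were higher and 4.33% lower. The log2 ratio was -0.83 for Ciita, -0.70 for H2-Ab1, -0.72 for H2-DMb2 and -0.57 for Cd74, the last further from 0 than the -0.21 of the whole libraries, and 0.08 for H2-DMa, -0.07 for H2-DMb1 and -0.16 for H2-Oa. Between Ndrg2-KO and untreated mature cells 0 were higher and 2 lower, where 10.4% of 11220 genes were higher and 3.80% lower. These were H2-DMb2 at -1.02 and H2-Ob at -1.52 (-2.46 to -0.67), the latter from 14 and 65 UMIs. H2-DMb2 was at the threshold and not past it with a minimum of 300 UMIs per cell, and H2-Ob fell under the minimum of UMIs with under 5% mitochondrial UMIs. Ciita was -0.31 and H2-Ab1 -0.11 on the log2 scale there. H2-Eb1 and H2-DMa were past 1.5-fold lower, a threshold that 7.91% of all genes passed in this direction. The medians of the 10 genes were -0.36 and -0.45, beside 0.080 and 0.208 over all genes compared.

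The cells of a class were not alike. With each cell drawn to 2000 UMIs, the median cell held 8 UMIs of H2-Aa, H2-Ab1 and H2-Eb1 together in mature untreated, 6 in mature VD3 stimulated and 3 in mature Ndrg2-KO cells, and 3, 0 and 1 in the premature cells. The share of mature cells with no classical UMI was 6.19%, 5.54% and 29.1%, so a larger share of the mature Ndrg2-KO cells held few classical transcripts. The 8 premature markers, all with UMIs in each class, summed to 1151 CPM in mature Ndrg2-KO cells and to 174 and 85.0 in mature untreated and VD3 stimulated cells, and their part in the mature comparisons was not tested. These cells were not 1 cluster, because their share was 28.3%, 40.2% and 22.2% in the 3 clusters that made up the mature Ndrg2-KO class. Their median undrawn depth was 8728 UMIs, beside 12377 in the mature Ndrg2-KO cells with 5 or more. Among premature cells 33.6%, 55.6% and 40.4% had none, and in neutrophil-like cells, which make little or no class II, 87.2%, 85.9% and 96.4% had none.

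**Figure D4:**
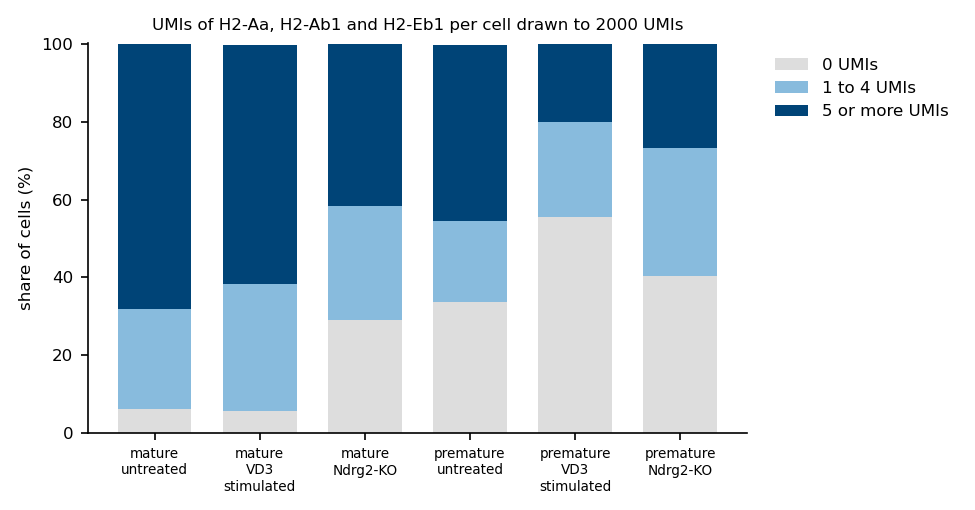
Share of mature and premature DC-like cells, in percent, with 0, 1 to 4, or 5 or more UMIs of H2-Aa, H2-Ab1 and H2-Eb1 together after each cell was drawn to 2000 UMIs. Cells without a classical UMI make up 29.1% of mature Ndrg2-KO cells and 6.19% and 5.54% of mature untreated and VD3 stimulated cells.

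Cells rich in classical chains were also those with Ciita, which shares no reads with them. Among premature untreated cells, Ciita stood at 4.24 CPM in the 376 cells with no classical UMI and at 99.9 CPM in the 507 cells with 5 or more. Cd74 stood at 1466 and 10576 CPM in the same groups and H2-DMb1 at 113 and 673. H2-DMa differed less, at 436 and 588 CPM, and H2-Oa stood at 7.92 and 11.9. In premature VD3 stimulated cells Ciita stood at 1.26 and 39.9 CPM, and in premature Ndrg2-KO cells at 2.36 and 35.9. In mature cells it stood at 4.75 and 47.7 in the untreated and at 3.56 and 52.5 in the Ndrg2-KO library. H2-DMa stood at 436, 294 and 248 CPM in premature untreated, VD3 stimulated and Ndrg2-KO cells without classical transcripts, beside 279, 159 and 92.8 (13 UMIs) in neutrophil-like cells of those libraries, while Ciita in the cells without them lay between 1.26 and 4.75 CPM in the groups given here, beside 1.09 in neutrophil-like cells. The groups were cut from the measured genes, so these values are a description.

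Among the other culture classes the cDC1-like cells held the most class II RNA. Their classical sum stood at 17053 CPM in the untreated and 9363 in the VD3 stimulated library, and Ciita at 394 CPM (358 to 432) and 99.8 (86.5 to 115). Other markers differed between these classes too. The 7 cDC1 markers summed to 1776 CPM in the untreated and 796 in the VD3 stimulated class, the macrophage markers to 65.8 and 924, and the neutrophil markers to 113 and 756, while 3.80% and 9.27% of the cells had high doublet scores. Their part in the lower class II and Ciita levels was not tested. H2-Ab1 exceeded H2-Aa in them, at 7686 and 4547 CPM in untreated and 3883 and 2653 in VD3 stimulated cells. H2-Ob stood at 53.5 (40.9 to 68.7) and 16.8 CPM in them, with basophil-like cells next at 45.4 (30.4 to 65.3) and 11 CPM, and these neighbours overlapped in both libraries. H2-Oa alone of the H2-O and H2-DM genes was higher in the VD3 stimulated cDC1-like cells, at 74.1 against 55.3 CPM. Proliferating cells stood at 2205, 1652 and 1043 CPM in the classical sum and at 50.6, 16.4 and 13.2 CPM in Ciita across untreated, VD3 stimulated and Ndrg2-KO DCs. Those of the VD3 stimulated library stood apart, with a median of 3660.5 UMIs, a median mitochondrial share of 1.46% and 14155 CPM of summed neutrophil markers, against 27877 UMIs, 5.52% and 4363 CPM in the untreated library. Of the 2528 VD3 stimulated proliferating cells, 1455 came from a cluster left unnamed in the untreated and Ndrg2-KO libraries. The class thus did not hold the same clusters in each library.

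Neutrophil-like cells gave the background for most of the genes. Over the 3 cultures these cells stood at 44.9 CPM of H2-Aa, 24.6 of H2-Ab1 and 1.09 of Ciita, and at 0 of H2-Ob, where the exact interval allows up to 0.402. They held more Cd74 (757 CPM) and H2-DMa (219 CPM). By library their H2-DMa, at 279, 159 and 92.8 CPM, was above that of mature DC-like cells, at 168, 177 and 105, in the untreated culture and not in the others. Basophil-like cells held 446 CPM of H2-Aa, 28.6 of Ciita and 77.7 of H2-Oa, and their Ciita rested on 136 cells. The top 10 genes of this cluster also held Iglc1 in untreated and Igkc, Igha and Jchain in VD3 stimulated DCs, which are immunoglobulin-related. Drawn to 2000 UMIs, 54.7% and 63.4% of the basophil-like cells of these libraries had no classical UMI. The part of other cells in the basophil-like values was not tested. Granulocyte-monocyte progenitor-like cells, named in the untreated library alone, held 87.5 CPM of H2-Aa, 385 of Cd74 and 62.7 of H2-DMa.

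Shares of cells with a UMI were compared at one depth. With cells drawn to 2000 UMIs, H2-Aa was seen in 87.6%, 85.9% and 61.3% of mature and 56.9%, 32.9% and 47.1% of premature untreated, VD3 stimulated and Ndrg2-KO cells. It was seen in 6.40% of neutrophil-like cells (median undrawn depth 2886 UMIs) and 29.0% of basophil-like cells (7376 UMIs). Undrawn, H2-Aa was seen in 97.7%, 98.1% and 76.6% of mature, 78.2%, 51.2% and 76.3% of premature and 10.8% of neutrophil-like cells. Ciita was seen in 6.90%, 3.04% and 3.01% of all kept cells of the 3 cultures when drawn and in 27.3%, 14.1% and 17.9% undrawn. It was seen in 9.75%, 2.61% and 2.82% of premature cells and 54.4% (42.8 to 65.7) and 21.3% of cDC1-like cells when drawn, and in 0.200% of neutrophil-like cells. H2-DMb2 was seen in 11.5%, 6.78% and 4.77% of mature cells and 6.53%, 2% and 1.28% of premature cells, beside 3.95% and 1.85% of neutrophil-like cells of the untreated and VD3 stimulated libraries and 1 of 28 such cells of the Ndrg2-KO library. The premature share of VD3 stimulated cells, at 1.27 to 2.99% by its interval, thus could not be told from the neutrophil-like share of its library, at 1.04 to 3.02%, and the Ndrg2-KO library held too few neutrophil-like cells to set a background.

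Genes that work beside class II were described from fixed lists, in the same comparisons. Of the 7 genes of the promoter complex (Rfx5, Rfxap, Rfxank, Creb1, Nfya, Nfyb and Nfyc), 0 were 2-fold apart in any culture comparison. Across those comparisons 3.73% to 28.0% of all genes were apart in a given direction. Rfx5, the DNA-binding RFX subunit, stood at 6.49, 8.88 and 7.16 CPM in untreated, VD3 stimulated and Ndrg2-KO DCs. Of 12 inducers and repressors of Ciita, 2 were higher and 1 lower in VD3 stimulated than in untreated DCs, where 4.18% of all genes were higher and 7.44% lower. These were Irf8 (133 to 307 CPM, log2 ratio 1.21), an interferon regulatory factor, the interferon-γ receptor chain Ifngr1 (51.6 to 106 CPM, 1.04), and Bcl6 (-1.06), a repressor. In Ndrg2-KO against untreated DCs 0 were higher and 1 lower, the cytokine signalling inhibitor Socs1 (76.3 to 26.9 CPM, -1.50).

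Genes of antigen processing and turnover were further apart in the knockout. Set against untreated DCs, 5 of 10 such genes stood higher and 1 lower in the knockout, and 0 were apart in VD3 stimulated DCs. Of all genes 10.2% were higher and 9.28% lower in the knockout. Ctsl, an endosomal protease, stood at 186 and 1579 CPM in untreated and Ndrg2-KO DCs (log2 ratio 3.09), the asparaginyl endopeptidase Lgmn at 83.0 and 361 (2.12) and the protease Ctsb at 479 and 1922 (2.01). Ctss, which cuts the invariant chain, stood at 890.3, 508 and 2819 CPM in untreated, VD3 stimulated and Ndrg2-KO DCs. Within mature cells 4 of the 10 were higher and 0 lower in Ndrg2-KO than in untreated cells, namely Ctsl (2.94), Lgmn (1.56), Ctss (1.01) and March1 (2.02), where 10.4% of all genes were higher and 3.80% lower. By maturity, 7, 5 and 6 of the 10 were lower and 1 higher in mature than in premature cells of untreated, VD3 stimulated and Ndrg2-KO DCs, where 28.0%, 23.1% and 18.9% of all genes were lower and 14.4%, 13.1% and 12.5% higher. The higher one was Cd83, which opposes the removal of class II from the surface, at log2 ratios of 5.45, 5.27 and 4.44. March1, the ubiquitin ligase that takes class II off the surface, stood at 1.09, 0.564 and 4.40 CPM in mature and 88.2, 68.3 and 37.5 CPM in premature cells. Its log2 ratio was -6.34, -6.92 and -3.09.

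Class I genes were higher in mature cells or not 2-fold apart. Of 9 class I and class I processing genes, 7, 6 and 4 were higher and 0 lower in mature than in premature cells of untreated, VD3 stimulated and Ndrg2-KO DCs, where 14.4%, 13.1% and 12.5% of all genes were higher. The class I transactivator Nlrc5 was at log2 ratios of 1.05, 1.58 and 0.77, whereas Ciita was at -0.66, 0.58 and 1.10. Between whole libraries 0 of the 9 were apart from untreated DCs in either treated culture, and 3 (Psmb9, Psmb8 and Tap2) were lower in Ndrg2-KO than in VD3 stimulated DCs, where 9.21% of all genes were lower. H2-Eb2, a class II β chain relative, stood at 4.48 CPM in mature and 0.0401 in premature untreated cells, a log2 ratio of 6.80 (4.31 to 12.11) that rested on 185 UMIs and 1 UMI. Its library levels were 1.67 CPM in untreated, 1.03 in VD3 stimulated and 0.265 in Ndrg2-KO DCs.

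Of the named wound classes, DC-like, monocyte-like and macrophage-like cells held the most class II RNA. Over the 3 wound libraries the summed level of H2-Aa, H2-Ab1 and H2-Eb1 was 20281 CPM in 195 DC-like, 8645 in 1026 monocyte-like and 3164 in 1421 macrophage-like cells. H2-Aa stood at 6759.5, 3171 and 1277 CPM in these classes, Cd74 at 14155, 6948 and 3011, and H2-DMa at 427, 260.0 and 92.7. Ciita stood at 40.6 (33.1 to 49.4), 10.8 and 4.72 CPM. The order DC-like, monocyte-like, macrophage-like held for all 10 genes, though the intervals of monocyte-like and macrophage-like cells overlapped for H2-Oa (3 and 1 UMIs) and H2-Ob (11 and 17 UMIs), and it held in each library for H2-Aa, Cd74 and Ciita. The levels of H2-Oa and H2-DMb2 outside DC-like cells were low, H2-Oa standing at 40.2, 0.327 and 0.0524 CPM and H2-DMb2 at 79.2, 6.33 and 0.891. H2-DMb2 made up 16.6% (14.5 to 18.8) of the H2-DM β chain UMIs in DC-like, 2.65% in monocyte-like and 1.19% in macrophage-like cells.

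Cells that should lack class II gave the wound background. Neutrophil-like cells stood at 50.3 CPM of H2-Aa, 158 of Cd74 and 1.38 of H2-DMa, fibroblast-like cells at 46.4 of H2-Aa and 102 of Cd74, and erythroid-like cells at 23.2 and 31.5. With cells drawn to 1000 UMIs, any classical UMI was seen in 91.2% of DC-like, 64.3% of monocyte-like, 41.9% of macrophage-like, 12.5% of neutrophil-like, 3.74% of fibroblast-like and 3.95% of erythroid-like cells. Median undrawn depths were 12193, 8788, 12727, 3094, 27951 and 7600.0 UMIs. Undrawn, any classical UMI was seen in 97.4% of DC-like, 68.3% of macrophage-like and 28.4% of neutrophil-like cells. Ciita was seen in 6.19% (3.24 to 10.6) of DC-like, 1.63% of monocyte-like and 0.216% of macrophage-like cells, beside 0.0796% of fibroblast-like and 0.0206% of neutrophil-like cells.

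**Figure D5:**
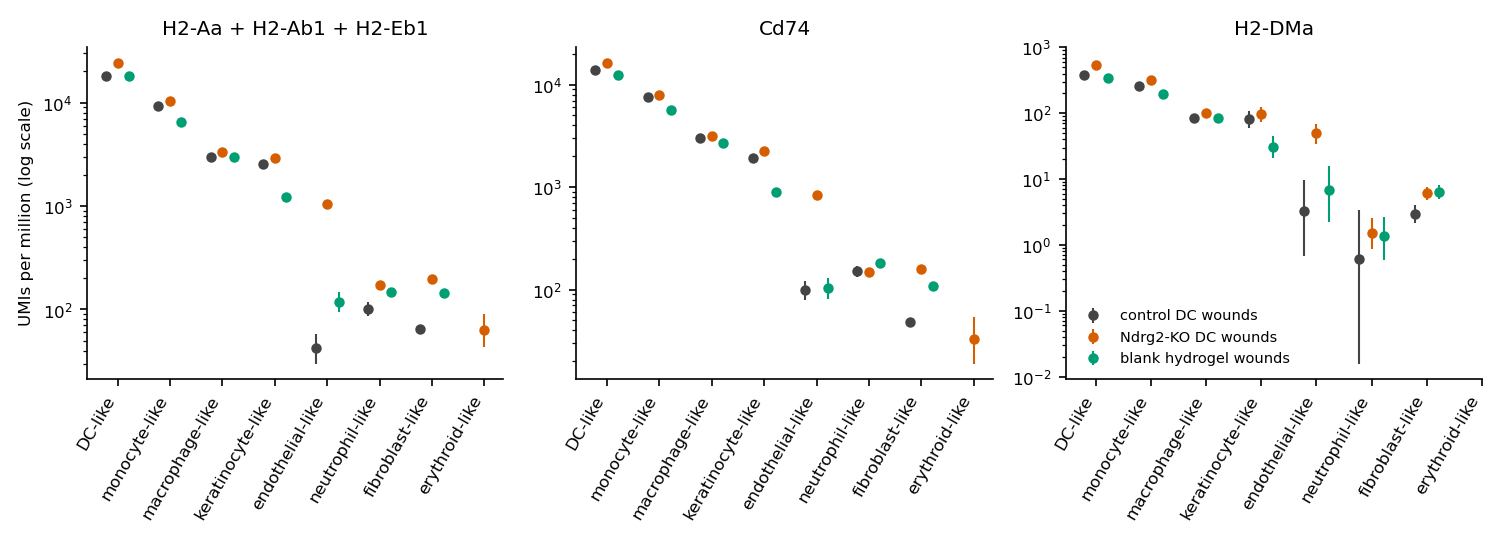
Summed level of H2-Aa, H2-Ab1 and H2-Eb1, and levels of Cd74 and H2-DMa, in CPM on log axes in each wound cell class of each library, with exact 95% counting intervals. DC-like cells are highest and monocyte-like cells next in all 3 libraries. Classes with under 20 cells in a library are left out, and erythroid-like H2-DMa, at 0, cannot be drawn.

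The macrophage-like class joined clusters of very different class II level. A cluster of 1124 cells led by Fcrls, Mrc1, Cd163 and C1qb stood at 4252 CPM in the classical sum, and a cluster of 297 cells led by Cd209 family genes and Lyve1 at 596. H2-Aa stood at 1621, 1925 and 1465 CPM in the first and at 481, 159 and 269.9 CPM in the second, in wounds given control cells, knockout cells and blank hydrogels. The knockout DC wounds thus had the highest level in the first cluster and the lowest in the second. An unnamed cluster of 1196 cells led by Arg1 and Mmp12 stood at 1782 CPM in the classical sum, at 3849, 1536 and 1269.9 CPM in the 3 libraries. A keratinocyte-like cluster of 134 cells held 2049.7 CPM, and it carried 6 of 7 T-cell markers beside 7 keratinocyte markers, so it was not 1 cell type. The endothelial-like class stood at 42 CPM with control DCs, 1045 with Ndrg2-KO DCs and 119 with blank hydrogels. The knockout value came from few cells, since 91.9% of those drawn to 1000 UMIs had no classical UMI and 1 cell held 23. High doublet scores took 18.8% of the class. Its neutrophil markers summed to 1094, 6515 and 850.3 CPM and its mast cell markers to 118, 1287 and 123, beside 1404, 1418 and 2398 for macrophage and 210.0, 138 and 179 for DC markers, and their part was not tested.

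The wound libraries were compared within macrophage-like and DC-like cells. In macrophage-like cells 7 of the 10 genes passed the minimum of 50 UMIs, and 0 were 2-fold apart between Ndrg2-KO and control DC wounds, where 3.16% of 9196 genes were higher and 0.826% lower. Their log2 ratios lay between -0.08 (Ciita) and 0.28 (H2-Eb1), with a median of 0.09 beside 0.033 over all genes compared. The class pooled the clusters given above, in which H2-Aa differed in opposite directions between these wounds. Between blank and control DC wounds 0 of 7 were apart, where 1.13% of 8481 genes were higher and 0.613% lower, and the ratios lay between -0.14 and 0.09. H2-DMb2, H2-Oa and H2-Ob had too few UMIs in this class. Ciita in macrophage-like cells stood at 4.77, 4.53 and 5 CPM with control cells, knockout cells and blank hydrogels.

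The DC-like class was small, with 38 cells in control DC, 79 in Ndrg2-KO DC and 78 in blank hydrogel wounds, and no label says which of them came from the hydrogel. H2-Aa stood at 6232, 8026 and 5914 CPM, H2-Ab1 at 5749, 8171 and 6014, H2-Eb1 at 5982, 8105 and 5998, and Cd74 at 13897, 16331 and 12371. The knockout DC wounds were highest for these 4 genes, and control and blank wounds lay close together. Drawn to 1000 UMIs, 18.4%, 5.06% and 7.79% of the DC-like cells of control DC, Ndrg2-KO DC and blank wounds had no classical UMI. Markers of other cells also differed within the class, the neutrophil markers summing to 729, 4997 and 3905 CPM and the erythroid markers to 50.8, 6301 and 3397, and their part was not tested. Ciita stood at 22.6 (11.7 to 39.4), 47.0 (34.0 to 63.3) and 44.3 (32.4 to 59.1) CPM from 12, 43 and 46 UMIs, so that blank wounds lay with the knockout DC wounds and the intervals overlapped. Between Ndrg2-KO and control DC wounds 1 of 9 genes was higher (Ciita, log2 ratio 1.06, interval 0.11 to 2.12) and 0 lower, where 4.14% of 3284 genes were higher and 2.68% lower. Ciita was at 0.92 and not past 2-fold with under 5% mitochondrial UMIs, and clustering without high doublet scores left 17 against 10 DC-like cells, too few to compare. Between blank and control DC wounds 0 of 9 were apart, where 3.49% of 3498 genes were higher and 2.12% lower, and Ciita was at 0.97 (0.03 to 2.03). The median ratios were 0.44 and -0.08, beside -0.001 and 0.004 over all genes compared. H2-Ob had too few UMIs, at 15.0, 36.0 and 31.8 CPM. Without the 9 DC-like cells of high doublet score Ciita stood at 19.6, 47.9 and 46.0 CPM and H2-Aa at 6286, 8166 and 6320.2. All 9 DC markers had UMIs in each library, summing to 2449.6, 2440.4 and 3340.0 CPM.

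The genes whose pattern was most like the classical sum were found by Pearson correlation of log2(CPM + 1) over the clusters of each library with at least 50 cells, which share libraries and depth, so the values are descriptions. Over 27 culture groups and 12087 genes they were Wtip (r = 0.90), Arl6 (0.85), Hepacam2 (0.85), Cpne8 (0.85) and Ccl17 (0.84). Over 30 wound groups and 11343 genes they were Ms4a4c (0.95), Grk3 (0.93), Arl4c (0.93), Cd83 (0.91) and Tnip3 (0.90). For Ciita they were Sh3pxd2a (0.86), Plekha5 (0.85), Ust (0.82), Aqp3 (0.79) and Cbfa2t3 (0.78) in the cultures and Grk3 (0.92), Clec4b1 (0.90), Dnah2 (0.90), Arl5c (0.88) and Pcgf5 (0.87) in the wounds. These lists depended on the settings. With Spearman's rho, 2 (classical sum) and 3 (Ciita) of the 5 culture genes and 3 and 2 of the 5 wound genes were kept, and with a minimum of 1000 UMIs 5, 2, 4 and 2. Among the 10 genes, the correlation with the classical sum in the cultures was 0.94 for Cd74, 0.78 for Ciita, 0.65 for H2-DMb2, 0.59 for H2-DMb1, 0.48 for H2-Oa, 0.44 for H2-Ob and 0.27 for H2-DMa. In the wounds H2-DMa was at 0.95, H2-DMb1 at 0.95, Ciita at 0.92 and H2-DMb2 at 0.72. H2-DMa was the least alike to the classical chains in the cultures and among the most alike in the wounds.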

How the data were processed

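Single-cell libraries of 3 BM-DC cultures and 3 wounds were analysed from the deposited gene by barcode matrices. The deposited values are raw UMI counts per gene and cell, made by the authors with Cell Ranger (3.1.0 for cultures and 6.0.0 for wounds per the file headers). The study's methods name mm10 and the submitters' processing notes list mm9, Cell Ranger and Seurat 3.1.1. All columns were used. The genes and all lists were chosen with earlier results of these data known, and the rule naming clusters was set after the clusters were seen.

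Counts of kept cells were summed per library, class or cluster and divided by the sum of all genes (CPM). Clusters were made in R 4.3.3 with Seurat 5.3.0 and Matrix 1.6.5 (2000 variable genes without the 10 genes and Ndrg2, 15 components, 15 neighbours, resolution 0.5), jointly over 3 libraries without batch correction, the other steps in Python 3.11.15 with NumPy 2.4.6, pandas 2.3.3, SciPy 1.17.1, scanpy 1.11.5 and matplotlib 3.10.9. A cluster of at least 20 cells was named by the list of which it held the largest share, with at least 3 markers at 50 CPM and 2-fold over the rest of its library (wounds: of all wound cells). A premature DC-like cluster needed 3 premature markers at 50 CPM and 2-fold over the mature cells, and 6 mature markers below 10% of their mature level. It stayed unnamed where its top 10 genes held more markers of another class. The genes named from the lists were those 2-fold apart, furthest first, with 200 UMIs in 1 of the sums, and 5 preset genes. Correlations used groups of at least 50 cells.

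With 1 library per condition no test was made. Intervals are exact 95% Poisson, Clopper-Pearson or conditional binomial and cover counting error only. Shares were computed on cells drawn to 2000 UMIs (cultures) or 1000 UMIs (wounds), shallower cells left out. Scrublet's own threshold marked 0 to 0.873% of cells, so doublets were kept in the main values and the highest 6% of scores were left out as an alternative. The other alternatives were the cell filter, scaling, averaging, fold threshold, clustering and, for maturity, marker counts per cell. The ratio step was tested on simulated counts.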

Additional observations from a re-analysis of the deposited data

How the results depend on the processing

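No paired analysis was possible because each condition was 1 library. Of 1017 values recomputed under an alternative, 571 stayed inside their counting interval, 445 left it and 1 reversed, 935 kept their sign, the median shift was 0.06 on the log2 scale and the largest 2.46, 48 moved by over 1.5 times, and 245 of 256 ratios past 2-fold stayed past it in the same direction. At 1.5-fold instead of 2-fold, 5 genes were apart in VD3 stimulated against untreated DCs (all lower, beside 16.0% of all genes), 9 in Ndrg2-KO against untreated (all lower, 19.1%) and 5 in Ndrg2-KO against VD3 stimulated (1 higher and 4 lower, 21.7% and 17.8%). In mature against premature cells 9 were apart in the untreated (5 higher and 4 lower, 21.5% and 41.8%) and 7 in the VD3 stimulated library (4 and 3, 20.6% and 35.3%). Against mature untreated cells 3 were apart in mature VD3 stimulated (all lower, 9.24%) and 4 in mature Ndrg2-KO cells (all lower, 7.91%), and in DC-like cells 2 (higher, 11.6%) and 1 (higher, 9.58%) in Ndrg2-KO DC and blank against control DC wounds. For untreated mature against premature cells the count of 3 became 7 with median-ratio scaling and 6 with maturity from marker counts per cell. With under 5% mitochondrial UMIs, which left 3125, 3619 and 1721 culture cells, the count in the VD3 stimulated library became 7 in place of 4. All 7 were higher (H2-Aa, H2-Ab1, H2-Eb1, Cd74, Ciita, H2-DMb2 and H2-Oa), where 14.6% of all genes were higher and 26.1% lower. H2-DMb1 stood there at 0.56 in place of -1.36, and the premature class held 1444 cells in place of 1150. The same filter gave 1 in place of 2 for mature Ndrg2-KO against untreated cells (without H2-Ob), as did a minimum of 300 UMIs per cell (without H2-DMb2), and 0 in place of 1 for DC-like cells of Ndrg2-KO DC wounds. Under that filter H2-DMb1 and Ciita, and with 300 UMIs Ciita, were no longer 2-fold apart by maturity in Ndrg2-KO cells. Means over cells gave 5 in place of 8 for mature against premature Ndrg2-KO cells (without H2-Aa, H2-Eb1 and Ciita), left H2-Eb1 out of Ndrg2-KO against untreated and H2-DMb2 out of Ndrg2-KO against VD3 stimulated DCs, and gave 2 and 1 for DC-like cells of Ndrg2-KO DC and blank wounds. The cause of these changes was not tested. A gene was seen in at least 50% of cells in 7 of 60 pairs of gene and library, in 3 at 1000 and 500 UMIs and in 17 undrawn. No premature VD3 stimulated cells were named without high doublet scores or with the 10 genes among the variable genes, so the VD3 stimulated maturity comparison rests on that clustering. DC-like wound cells gave no value with all barcodes (0 cells named) or without high doublet scores (17 and 23 cells against 10, under the minimum of 20). At these depths H2-Ob, and in wounds H2-Oa and H2-DMb2 outside DC-like cells, were limited by UMI counts.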
